A study of Mus musculus with 18 samples.

Results

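The 10 genes described here are the D cyclins *Ccnd1*, *Ccnd2* and *Ccnd3*, their partner kinases *Cdk4* and *Cdk6*, the retinoblastoma gene *Rb1*, the inhibitor *Cdkn1a* (p21), and the growth arrest genes *Gadd45a*, *Gadd45g* and *Gas1*. They were taken by gene symbol from the 28252 genes of the TPM table, and their read counts by the same Ensembl identifiers from the 53715 genes of the count table. *Ccnd2*, *Gadd45a* and *Gas1* were chosen by their measured differences between *in vitro* and *in vivo* oocytes in these libraries, and *Gadd45g* is named by the study for such a difference. The values of these 4 genes between the growth conditions are therefore a description, with no test.

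The oocytes came from C57Bl/6j x CBA/J F1 mice, with 3 libraries in each of 6 groups. For the *in vivo* groups of primordial and primary follicle oocytes, ovaries were taken from mice of 14 days, and for the *in vitro* groups ovaries were taken at 7 days and cultured for 7 days with recombinant FSH and serum. These oocytes were cut from stained paraffin sections by laser-capture microdissection (LCM), where flat pregranulosa cells defined the primordial and one layer of cuboidal granulosa cells the primary stage. MII oocytes of the *in vitro* group were released with hCG after a further 12 days of follicle culture, and those of the *in vivo* group came from superovulated adult females, so that growth condition, the age of the female and the way ovulation was induced cannot be told apart at this stage. Each MII library held 10 oocytes. LCM and MII libraries were prepared by different methods, so no test compared them. The labels do not say whether libraries of a group came from separate animals or cultures, and p-values measure only the spread between these libraries.

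D cyclins bind Cdk4 and Cdk6, and the active kinases phosphorylate the Rb protein, which then releases E2F factors and lets a cell enter S phase. Cdkn1a inhibits cyclin-dependent kinases, Gadd45 proteins respond to stress and DNA damage, and Gas1 is a membrane protein named for its expression in arrested cells that also acts as a Hedgehog co-receptor. Oocytes stay arrested in meiotic prophase through follicle growth and do not replicate DNA, whereas granulosa cells divide, with *Ccnd2* as the D cyclin that FSH induces there.

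The libraries set how far these genes can be compared. Each of the 12 LCM libraries had between 15149564 and 29205503 counts, and each of the 6 MII libraries between 7334817 and 9978830. The floor of 3 counts was 0.103 to 0.198 CPM (counts scaled to library size) for LCM and 0.301 to 0.409 CPM for MII oocytes. All 12 LCM libraries also held RNA of other ovarian cells: summed TPM was 453 to 29972 for 10 theca or stroma markers and 24.4 to 2676 for 12 granulosa cell markers, beside 323 to 1914 for 12 oocyte markers. In the MII libraries the oocyte markers summed to 10345 to 20877 TPM and the stroma markers to 0.158 to 4.11 TPM. In bulk samples, fewer cells of a type and less RNA per cell cannot be told apart. Primary *in vivo* library 2 stood apart with 29972 TPM of stroma markers, and results resting on it are given without it.

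Within the LCM groups, libraries of the same label often disagreed for these genes. Of the 40 combinations of a gene and an LCM group, 27 had a library with at least 100 reads, and in 15 of these another library of the same group had 3 or fewer. In the MII groups 7 of 20 combinations had a library with at least 100 reads, and in 0 of them another library had 3 or fewer. The number of the 10 genes above 3 reads ranged from 3 to 9 over the LCM libraries and from 6 to 8 over the MII libraries. The plot of TPM by library shows both patterns.

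**Figure D1:**
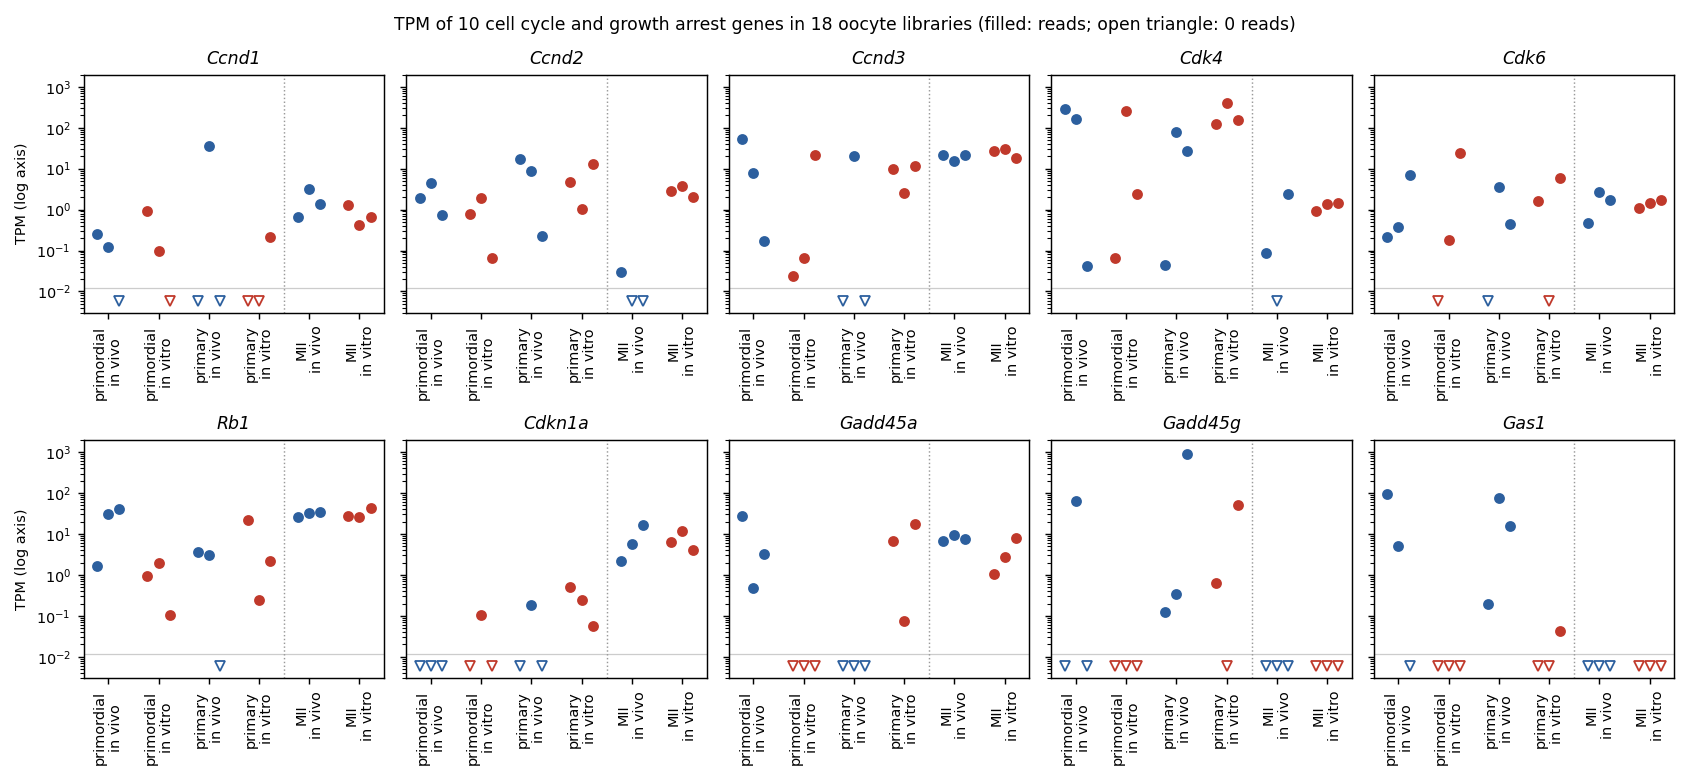
TPM (log axis) of the 10 genes in each of the 18 libraries, by stage and growth condition (blue, *in vivo*; red, *in vitro*); open triangles below the grey line mark libraries with 0 reads, and the dotted line separates LCM from MII libraries, which were prepared differently. *Gadd45a* had 0 reads in all 3 primordial *in vitro* and all 3 primary *in vivo* libraries, and *Gas1* and *Gadd45g* had 0 reads in all 6 MII libraries.

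*Gadd45a*, *Gadd45g* and *Gas1* all had 0 reads in every primordial *in vitro* library, and their promoters are shown for that reason. RefSeq promoter entries on GRCm38.p6 matched 7 of the 10 genes. The stretches before each start site are written 5′ to 3′ on the strand of the gene (minus for *Gadd45a* and *Gas1*, plus for *Gadd45g*), with matches to the GC box GGGCGG, the CCAAT box (CCAAT) and TATAAA, on either strand, in capitals.
*Gadd45a*, chr6:67037458-67037657: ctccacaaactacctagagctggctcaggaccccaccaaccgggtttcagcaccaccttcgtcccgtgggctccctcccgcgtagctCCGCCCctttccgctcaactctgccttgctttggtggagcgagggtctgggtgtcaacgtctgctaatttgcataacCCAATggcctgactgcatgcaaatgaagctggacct
*Gadd45g*, chr13:51846425-51846674: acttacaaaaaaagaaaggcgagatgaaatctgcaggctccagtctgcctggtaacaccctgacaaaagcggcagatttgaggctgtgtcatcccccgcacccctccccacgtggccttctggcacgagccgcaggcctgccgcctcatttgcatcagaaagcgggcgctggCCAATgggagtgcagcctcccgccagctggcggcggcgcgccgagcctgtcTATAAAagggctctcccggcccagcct
*Gas1*, chr13:60177536-60177785: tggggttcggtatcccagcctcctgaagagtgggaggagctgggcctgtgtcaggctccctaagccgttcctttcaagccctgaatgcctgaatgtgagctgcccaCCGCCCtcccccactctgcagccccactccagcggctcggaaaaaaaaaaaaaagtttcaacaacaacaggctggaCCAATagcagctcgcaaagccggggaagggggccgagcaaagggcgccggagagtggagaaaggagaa
All 3 stretches held 1 CCAAT box. Those of *Gadd45a* and *Gas1* held 1 GC box and no TATAAA, and that of *Gadd45g* held 1 TATAAA and no GC box. Over 32536 RefSeq windows of 250 bases, 32.97% held a GC box, 33.81% a CCAAT box and 12.31% TATAAA. The *Gadd45a* stretch is shorter, at 200 bases, because the rest lies in its transcribed part. The matches are letters in these windows and say nothing of binding.

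*Gadd45a* (chr6:67035096-67037457, minus strand) was higher *in vivo* in primordial and higher *in vitro* in primary follicle oocytes. In primordial follicle oocytes the *in vivo* libraries held 328, 6 and 42 reads (27.0, 0.482 and 3.23 TPM) and the *in vitro* libraries 0, 0 and 0. In primary follicle oocytes the *in vivo* libraries held 0, 0 and 0 reads and the *in vitro* libraries 84, 1 and 242 (6.89, 0.0750 and 17.1 TPM). The groups did not overlap at either stage, although the lowest values, 6 and 1 reads, lay close to 0. Against the floor of 3 counts per library, the primordial *in vivo* mean was at least 34.9-fold higher than the *in vitro* group, and at least 7.67-fold without library 1, which carried 85.3% of the group's summed CPM. The primary *in vitro* mean was at least 22.4-fold higher than the *in vivo* group, and at least 9.08-fold without library 3. Between stages, the same libraries put primordial above primary oocytes by at least 35.9-fold *in vivo* and primary above primordial oocytes by at least 21.8-fold *in vitro*, or at least 7.89-fold and 8.82-fold without those libraries. The overlapping gene on the opposite strand, E230016M11Rik, had 410 reads over the 12 LCM libraries, and how strand was treated is not given in the sources used here.

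In MII oocytes *Gadd45a* was read in all 6 libraries. The *in vivo* libraries held 43, 49 and 45 reads (5.22 CPM ± 0.627, SD, n = 3) and the *in vitro* libraries 8, 17 and 47 (2.60 CPM ± 2.33, SD, n = 3). *In vitro* library 3 lay among the *in vivo* libraries, so the groups overlapped. The fitted log2 fold change was -1.002 (SE 0.86), and -2.03 without *in vitro* library 3.

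*Gas1* (chr13:60174405-60177365, minus strand) was read in 5 of 6 LCM *in vivo* libraries and, with 1 read, in 1 of 6 *in vitro* libraries. Primordial *in vivo* libraries held 1939, 106 and 0 reads (95.3, 5.07 and 0 TPM), against 0 reads in each *in vitro* library. Primary *in vivo* libraries held 4, 1655 and 239 reads (0.194, 76.6 and 15.8 TPM), against 0, 0 and 1 *in vitro*. The primary groups did not overlap, whereas primordial *in vivo* library 3 shared the value 0 with the *in vitro* group. The primordial *in vivo* mean was at least 184-fold higher than the *in vitro* group, or at least 12.5-fold without library 1. In primary oocytes the ratio of 1898 *in vivo* reads to 1 *in vitro* read, scaled for depth, was 2706 (95% counting interval 485 to 106930), and 589 without *in vivo* library 2, the library with 29972 TPM of stroma markers. The interval covers counting error in pooled reads, not the spread between libraries. It is no test of *Gas1*, which was chosen by its culture difference.

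Markers of other ovarian cells were measured beside these *Gas1* and *Gadd45a* values. The 10 stroma markers summed to 539 to 2099 TPM in primordial *in vivo* and 461 to 3525 TPM in primordial *in vitro* libraries, which overlap. Single stroma markers overlapped there or shared the value 0. Among them, *Tcf21* was at 265, 13.8 and 0 TPM *in vivo* and at 0, 0 and 0.860 TPM *in vitro*. In primary oocytes the 10 stroma markers summed to 453 to 29972 TPM *in vivo* and 965 to 2157 TPM *in vitro*. They overlapped only through *in vivo* library 2. The other *in vivo* libraries held 645 and 453 TPM, below each *in vitro* library. *Tcf21* was at 0, 39.6 and 0 TPM in primary *in vivo* and at 156, 0.169 and 2.28 TPM in primary *in vitro* libraries. The 5 red cell markers did separate the primary groups, but only in sum. They summed to 1157 to 7508 TPM *in vivo*, with none of the 5 at 0 throughout. *In vitro* they summed to 0 to 174 TPM, with 3 of 5 at 0 throughout. Single red cell markers overlapped or shared the value 0. *Hba-a1* was at 7503, 1189 and 0 TPM *in vivo* and 174, 0 and 0.306 TPM *in vitro*. In sum, the 12 granulosa cell markers separated the primary groups in the other direction, in which *Gadd45a* also differed. They summed to 358 to 613 TPM *in vivo*, with 2 of 12 at 0 throughout. *In vitro* they summed to 728 to 2676 TPM, with 1 of 12 at 0 throughout. Single granulosa cell markers overlapped, among them *Foxl2* (9.45 to 149 TPM *in vivo*, 138 to 327 TPM *in vitro*). Without *in vivo* library 2, *Inha*, *Amh* and *Nr5a2* were higher in every primary *in vitro* library than in any *in vivo* library. The remaining markers then still overlapped or shared the value 0. In primordial oocytes the granulosa cell markers overlapped, at 24.4 to 698 TPM *in vivo* and 64.4 to 1068 TPM *in vitro*. The part of other cells in the *Gas1* and *Gadd45a* values was not tested. In MII oocytes *Gas1* had 0 reads in all 6 libraries, which allows up to 0.301 to 0.409 CPM per library.

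*Gadd45g* (chr13:51846678-51848468, plus strand) rested on single libraries. Primordial *in vivo* libraries held 0, 541 and 0 reads and the *in vitro* libraries none. Primary *in vivo* libraries held 1, 3 and 5373 reads (0.123, 0.350 and 895 TPM) and *in vitro* libraries 5, 0 and 485 (0.617, 0 and 51.4 TPM). One library carried 100%, 99.9% and 98.9% of the summed CPM in the 3 groups with reads, and the groups compared overlapped at both stages. The primordial *in vivo* mean was at least 42.5-fold higher than the *in vitro* group, through its library 2 alone. *In vitro*, the primary mean was at least 32.2-fold higher than the primordial mean, and without primary library 3 no fold could be given. All 6 MII libraries had 0 reads.

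*Cdkn1a* (chr17:29090976-29100727, plus strand) was near 0 in LCM libraries and present in MII oocytes. Over the 12 LCM libraries it had between 0 and 8 reads, and 10 of the 12 were at or under the floor of 3. The primary *in vitro* libraries held 8, 4 and 1 reads and the *in vivo* libraries 0, 3 and 0, a ratio of 3.04 (95% counting interval 0.835 to 16.6). In MII oocytes the *in vivo* libraries held 17, 38 and 125 reads (2.15, 5.73 and 16.6 TPM) and the *in vitro* libraries 60, 92 and 30 (6.39, 11.8 and 4.14 TPM). The MII groups overlapped fully, with the highest and the lowest library both *in vivo*.

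Among the D cyclins, *Ccnd2* (chr6:127125162-127152193, minus strand) separated the MII groups. The *in vivo* libraries held 1, 0 and 0 reads and the *in vitro* libraries 111, 128 and 63 (2.79, 3.86 and 2.05 TPM). Every *in vitro* library was above every *in vivo* library, and the *in vivo* values were at or under the floor. The ratio of 302 to 1 reads, scaled for depth, was 284 (95% counting interval 50.5 to 11238) and ran from 259 to 329 when each *in vitro* library was left out. This interval, too, covers counting error in pooled reads and is no test of *Ccnd2*, which was chosen by its culture difference. The opposite-strand gene Gm43126 had 19 reads over the 6 MII libraries.

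Granulosa cell markers were measured beside *Ccnd2*. The 12 markers summed to 38.4 to 76.5 TPM in the MII *in vivo* and 30.5 to 62.5 TPM in the MII *in vitro* libraries, which overlap, and most of each sum was *Cyp19a1*, the aromatase gene. *Foxl2* and *Amhr2*, which define granulosa cells, were at 0 TPM in all 6 libraries. Of the 12 markers, 8 were at 0 in every *in vivo* library and 3 in every *in vitro* library. *Inhba*, an inhibin and activin subunit gene, was at 0 TPM in the *in vivo* libraries and at 0.852, 0.667 and 2.45 TPM *in vitro*, so that like *Ccnd2* it did not overlap between the groups. *Inha*, the inhibin alpha subunit gene, was at 0 TPM *in vivo* and at 2.25, 2.70 and 0 TPM *in vitro*. Their part in the *Ccnd2* difference was not tested.

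In LCM oocytes *Ccnd2* was the only one of the 10 genes above 3 reads in all 12 libraries. Primordial libraries held 123, 300 and 50 reads *in vivo* and 34, 152 and 4 *in vitro*, and primary libraries held 1108, 620 and 11 reads *in vivo* and 304, 73 and 975 *in vitro*. The growth conditions overlapped at both stages. Over both stages the log2 fold change *in vitro* over *in vivo* was -1.13 (SE 2.23). Over both growth conditions the log2 fold change of primary over primordial oocytes was 2.32 (SE 2.31, adjusted p = 0.883 by edgeR's quasi-likelihood test).

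*Ccnd3* (chr17:47505051-47599691, plus strand) was the leading D cyclin of MII oocytes. The *in vivo* libraries held 21.8, 15.6 and 21.02 TPM and the *in vitro* libraries 27.5, 30.6 and 18.1 TPM, with overlap between the groups. Its share of the summed D cyclin TPM was 83.0% to 96.9% in the 6 MII libraries, and it was the highest of the 3 D cyclins in 6 of 6. In the LCM libraries the same share ran from 0% to 99.7%, with *Ccnd3* highest in 5, *Ccnd2* in 5 and *Ccnd1* in 2 of 12. A processed pseudogene of *Ccnd3* is annotated, and reads could have been split between them.

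**Figure D2:**
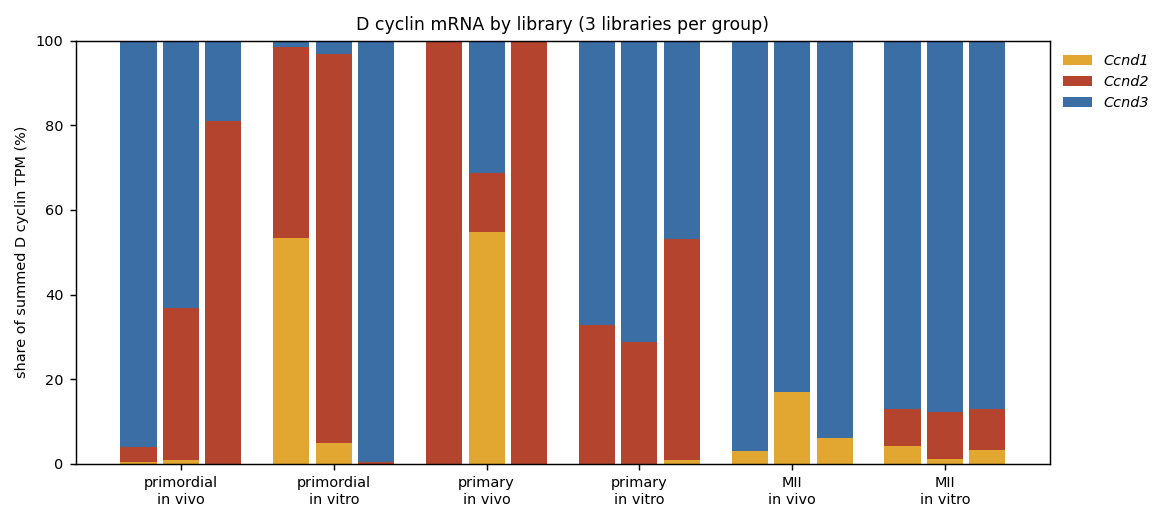
Share of *Ccnd1*, *Ccnd2* and *Ccnd3* in the summed D cyclin TPM (%) of each library, 3 libraries per group. *Ccnd3* takes 83.0% to 96.9% in every MII library, *Ccnd2* takes 8.85% to 11.1% in the MII *in vitro* libraries and at most 0.133% *in vivo*, and the LCM libraries of a group differ among themselves.

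*Ccnd3* in LCM oocytes ranged from 0 to 3190 reads. Primordial libraries held 3190, 493 and 11 reads *in vivo* and 1, 5 and 1188 *in vitro*. Primary libraries held 0, 1313 and 0 reads *in vivo* and 581, 169 and 819 *in vitro*. In the primary *in vivo* group all reads lay in library 2, and with it the growth conditions overlapped. Without library 2 the primary *in vivo* libraries held 0 and 0 reads, below each *in vitro* library. The primordial growth conditions overlapped.

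*Ccnd1* (chr7:144929931-144939925, minus strand) was low nearly everywhere. Outside primary *in vivo* library 2, which held 1231 reads (35.8 TPM), the LCM libraries held 0 to 20 reads. In MII oocytes the *in vivo* libraries held 11, 45 and 22 reads and the *in vitro* libraries 26, 7 and 10, at 0.422 to 3.20 TPM over all 6, with overlap. Without primary *in vivo* library 2 its fitted differences between LCM groups changed sign, from -2.94 to 2.84 (log2) for growth condition and from 2.01 to -3.77 for stage.

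The kinase genes differed in where they were read. *Cdk4* (chr10:127063534-127067920, plus strand) reached 406 TPM in LCM libraries and at most 2.37 TPM in MII libraries, in which it had 1, 0 and 26 reads *in vivo* and 13, 16 and 15 reads *in vitro*. Primary *in vitro* libraries held 2777, 9975 and 4101 reads (124, 406 and 157 TPM), all above the *in vivo* libraries at 1, 1917 and 459 reads (0.0443, 80.8 and 27.6 TPM). This difference of *Cdk4* did not pass the test (adjusted p = 0.833, edgeR). With all libraries kept, the 12 granulosa cell markers also separated the primary groups only in sum, at 728 to 2676 TPM *in vitro* and 358 to 613 *in vivo*. Single markers overlapped, among them *Inha* (183 to 1546 TPM *in vitro*, 0 to 322 TPM *in vivo*) and *Amhr2*, highest *in vivo* at 202 TPM. Without *in vivo* library 2, *Inha* was at 0 and 122 TPM *in vivo*, below each *in vitro* library. *Amh* and *Nr5a2* then separated in the same direction, and the remaining markers overlapped or shared the value 0. The part of these markers' cells in the *Cdk4* values was not tested. The primordial libraries held 6298, 3731 and 1 reads *in vivo* and 1, 7075 and 49 *in vitro*, with overlap. *Tspan31*, which overlaps *Cdk4* on the opposite strand, had 4500 reads over the LCM libraries and 114 over the MII libraries.

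*Cdk6* (chr5:3341485-3531008, plus strand) stayed at or under 2.76 TPM in MII oocytes, with 24, 115 and 83 reads *in vivo* and 65, 71 and 78 *in vitro*. The *in vitro* libraries lay inside the range of the *in vivo* libraries. In LCM libraries it ranged from 0 to 2196 reads, the highest being primordial *in vitro* library 3, which carried 99.3% of its group's summed CPM.

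*Rb1* (chr14:73183673-73325822, minus strand) had the highest mean TPM of the 10 genes in MII oocytes. The *in vivo* libraries held 26.5, 31.9 and 35.2 TPM (70.1 CPM ± 3.23, SD, n = 3) and the *in vitro* libraries 27.7, 26.3 and 43.1 TPM (76.4 CPM ± 21.5, SD, n = 3), with overlap. In LCM oocytes *Rb1* held 68, 1271 and 1761 reads in primordial *in vivo*, 26, 99 and 4 in primordial *in vitro*, 151, 137 and 0 in primary *in vivo* and 923, 11 and 104 in primary *in vitro* libraries. Both primordial groups were read in all libraries, and the lowest *in vivo* library lay below the highest *in vitro* library. *Rcbtb2*, on the opposite strand within the *Rb1* region, had 4492 reads over the LCM libraries.

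The order of levels in MII oocytes, by mean TPM over the 6 libraries, was *Rb1* (31.8 ± 6.55), *Ccnd3* (22.4 ± 5.65), *Cdkn1a* (7.80 ± 5.38), *Gadd45a* (5.95 ± 3.28), *Cdk6* (1.54 ± 0.758), *Ccnd2* (1.46 ± 1.69), *Ccnd1* (1.27 ± 1.02) and *Cdk4* (1.04 ± 0.897), where errors are SD over 6 libraries. *Ccnd3* was above *Cdkn1a* in 6 of 6 libraries, and *Rb1* was above *Ccnd3*, and *Gadd45a* above *Cdk6*, in 5 of 6. *Cdkn1a* was above *Gadd45a*, and *Ccnd1* above *Cdk4*, in 3 of 6, so these neighbours did not differ beyond their spread. The place of *Ccnd2* depended on the growth condition: it lay above *Cdk6* (1.10 to 1.71 TPM) and *Ccnd1* (0.422 to 1.31 TPM) in all 3 *in vitro* libraries and below both in all 3 *in vivo* libraries. *Gadd45g* and *Gas1* were at 0.

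The first question of the design was whether growth *in vitro* changed these genes. For the 6 genes not chosen for such a difference (*Ccnd1*, *Ccnd3*, *Cdk4*, *Cdk6*, *Rb1* and *Cdkn1a*), 0 of 6 were called in primordial follicle oocytes by edgeR's quasi-likelihood test, at an adjusted p under 0.05 and a fold of at least 2, where 0.0326% of all genes tested were called. In primary follicle oocytes 0 of 6 were called, with 0% of all genes, and over both stages 0 of 6, with 0% of all genes. For the difference of the culture effect between the stages 0 of 6 were called, with 0.104% of all genes. In MII oocytes 0 of 6 were called, with 0.35% of all genes. In each of these 5 comparisons 0 of 6 had an unadjusted p under 0.05 by edgeR, beside 9.66% to 11.7% of all genes tested. In each, limma on log2 TPM called 0 of the 6. Without primary *in vivo* library 2, edgeR called 0 of 6. It then gave 1 of 6 an unadjusted p under 0.05 in primary oocytes, and 1 of 6 for the difference between stages. Of all 14923 genes tested, 1482 and 2218 had such a p in these comparisons. DESeq2 with its defaults called 0 of the 4 with an adjusted p in each of the 4 LCM comparisons, where it called 8.87% (primordial), 2.68% (primary), 6.19% (both stages) and 6.3% (difference between stages) of all genes with an adjusted p. In MII oocytes it called 0 of 6, with 2.24% of all genes. DESeq2 gave 1 of the 6 genes an unadjusted p under 0.05 in primordial oocytes, beside 1703 of all 15808 genes with a p-value.

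The intervals of the LCM differences were wide. The log2 fold changes *in vitro* over *in vivo* over both stages were -2.94 (SE 2.42) for *Ccnd1*, -0.73 (SE 2.12) for *Ccnd3*, 1.02 (SE 1.67) for *Cdk4*, 1.00 (SE 2.20) for *Cdk6* and -1.70 (SE 2.24) for *Rb1*. The narrowest 95% interval, that of *Cdk4*, ran from -2.25 to 4.28. *Cdkn1a* was fitted at 2.16 (SE 1.70), but it had at most 8 reads in any of these libraries. The direction of *Ccnd3*, *Cdk4* and *Cdk6* changed when 1 library was left out, as it did for *Ccnd1*.

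The second question was whether the genes differed between primordial and primary follicle oocytes. All 10 were tested, and 0 of 10 were called *in vivo*, where 0.0522% of all genes were called, 0 of 10 *in vitro*, with 0% of all genes, and 0 of 10 over both growth conditions, with 0% of all genes. Unadjusted p by edgeR was under 0.05 for 11.2%, 10.9% and 12.4% of all genes tested in these comparisons. It was so for 1, 2 and 1 of the 10, namely *Gadd45a* *in vivo*, *Gadd45a* and *Gadd45g* *in vitro*, and *Gadd45g* over both. Their adjusted p by edgeR was 0.381, 0.387, 0.384 and 0.240 in that order. DESeq2 with its defaults called *Gadd45a* *in vivo*, lower in primary oocytes, as 1 of 7 genes with an adjusted p, where it called 5.91% of all such genes. It called 0 of 7 *in vitro*, with 4.73% of all genes, and 0 of 7 over both growth conditions, with 6.75%, and limma on log2 TPM called 0 of 10 in all 3. *Gadd45a* was tested here on the same libraries whose culture difference chose it, so its p-values and its call are not independent results.

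Over both growth conditions the log2 fold changes of primary over primordial oocytes were 2.01 (SE 2.37) for *Ccnd1*, -0.86 (SE 2.12) for *Ccnd3*, -0.35 (SE 1.65) for *Cdk4*, -1.68 (SE 2.24) for *Cdk6* and -0.38 (SE 2.19) for *Rb1*. All of these 5 changed sign when some single library was left out, and *Ccnd2* did not.

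**Figure D3:**
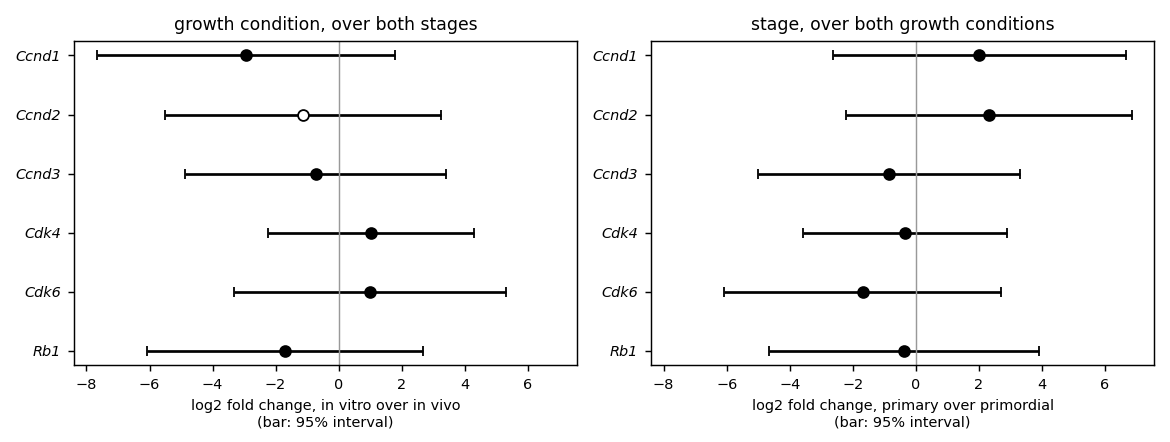
Log2 fold changes of 6 genes in LCM oocytes with 95% intervals (bars), *in vitro* over *in vivo* over both stages (left) and primary over primordial over both growth conditions (right), from edgeR on 12 libraries; the open circle marks *Ccnd2*, chosen by its culture difference and not tested on the left. Every interval includes 0, and the narrowest on the left, that of *Cdk4*, spans -2.25 to 4.28.

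In MII oocytes the intervals were narrower. The log2 fold change *in vitro* over *in vivo* was 0.13 (SE 0.34) for *Rb1*, with a 95% interval from -0.61 to 0.86, and 0.45 (SE 0.37) for *Ccnd3*, from -0.35 to 1.24. For *Cdk6* it was -0.13 (SE 0.65) and for *Cdkn1a* -0.04 (SE 0.76). *Ccnd1* (-0.90, SE 1.08) and *Cdk4* (0.73, SE 1.60) rested on fewer reads and left larger differences possible. Adjusted p of these 6 genes ranged from 0.712 to 0.994 by edgeR. For *Rb1* the interval leaves out a rise or fall of 2-fold, and for the other 5 genes a change of 2-fold in at least 1 direction lies inside it.

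**Figure D4:**
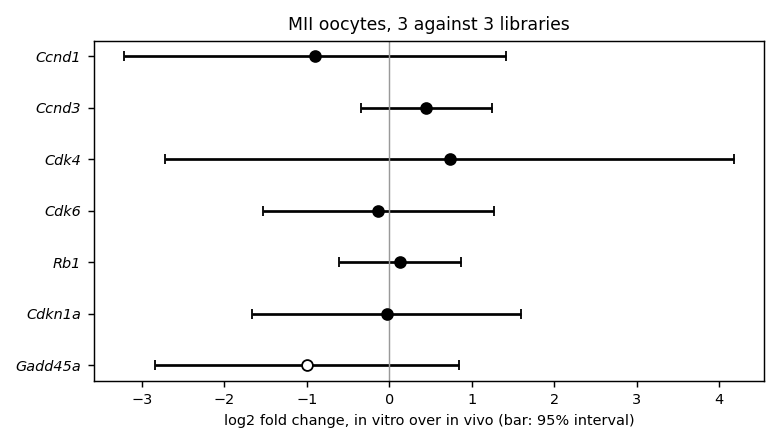
Log2 fold changes of 7 genes in MII oocytes, *in vitro* over *in vivo*, with 95% intervals (bars) from edgeR on 6 libraries; the open circle marks *Gadd45a*, chosen by its culture difference and not tested. Every interval drawn includes 0, that of *Rb1* being the narrowest at -0.61 to 0.86. *Ccnd2*, also chosen by its culture difference and not tested, is not drawn. Its fitted log2 fold change of 7.68 (SE 1.11) rests on 1 *in vivo* read in all.

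The genes around this pathway were followed in 7 lists of 62 genes: inhibitors, pocket proteins and E2F factors, cyclins E and A with Cdk2, the Cdk-activating kinase, replication genes that E2F activates, p53 and growth arrest genes, and Hedgehog reception. In LCM oocytes edgeR called 0 of the 60 tested in all 7 comparisons. Unadjusted p was under 0.05 for 3 to 9 of the 60, while this held for 9.66% to 12.4% of all genes tested. DESeq2 with its defaults called 1 to 3 of the 42 to 46 list genes with an adjusted p, where it called 2.68% to 8.87% of all genes, and limma on log2 TPM called 0. In MII oocytes edgeR called 1 of 52, with 4 at an unadjusted p under 0.05, beside 0.35% called and 10.2% at that p over all genes. DESeq2 called 1 of 51, with 2.24% of all genes, and limma called 0. The median log2 fold change of the 52 was 0.36, beside 0.04 over all genes tested.

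The gene called was *Gli3*, a transcription factor of the Hedgehog pathway. Its MII *in vivo* libraries held 873, 353 and 876 reads (25.6, 12.3 and 27.0 TPM) and the *in vitro* libraries 2466, 3019 and 2877 (60.9, 89.4 and 92.0 TPM). *Gli3* was higher in 3 of 3 *in vitro* libraries than in any *in vivo* library, with a log2 fold change of 1.92 (SE 0.37, adjusted p = 0.0483, edgeR). Leaving out 1 library kept the direction (1.61 to 2.17), but the adjusted p was above 0.05 in 5 of 6 cases, at 0.126 to 0.292. Over the other alternatives the adjusted p of *Gli3* ran from 0.000319 to 1, with the call lost under DESeq2 size factors in edgeR, a stricter filter, 1 model of all libraries and limma on log2 TPM. The Hedgehog receptor genes *Ptch1* and *Smo* were at 0 to 0.0794 TPM and at 0 TPM in MII libraries, and at medians of 140 and 37.9 TPM in LCM libraries.

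The 2 most abundant genes of each of the other lists, by mean TPM over 18 libraries, were read in both kinds of library. *E2f5* and *E2f4*, repressive E2F factors that bind pocket proteins, had MII medians of 420 and 105 TPM. *Ccna2*, cyclin A2, had a median of 290 TPM in MII and 9.27 TPM in LCM libraries, and its kinase *Cdk2* of 4.75 and 26.9 TPM. The replication helicase genes *Mcm4* and *Mcm2* had MII medians of 140 and 105 TPM and LCM medians of 9.24 and 36.0 TPM. *Mdm4*, a p53 inhibitor, had 233 and 38.9 TPM, and *Gas6*, a growth arrest gene that encodes a receptor ligand, 53.6 and 283 TPM. *Cdkn1b* (p27) had 6.11 and 31.6 TPM, and *Cdkn1c* (p57) 2.03 and 0.258 TPM. The Cdk-activating kinase genes *Cdk7* and *Mnat1* had MII medians of 14.1 and 13.1 TPM and LCM medians of 1.03 and 0.353 TPM. These are levels set side by side, since stage and library preparation cannot be told apart.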

How the data were processed

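RNA was measured in 18 libraries, 3 in each of 6 groups, mapped from the sample labels. The authors trimmed reads with Trim Galore 0.4.1, mapped them to mm10 with TopHat2, and deposited read counts per gene from featureCounts and TPM values, which are scaled by gene length and then to the library. Strand and multiple-mapping settings are not given in the sources used here, so counts of overlapping genes are uncertain. Members and lists were chosen with earlier results of these data known.

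Genes with at least 10 counts in total were fitted with edgeR 4.0.16 in R 4.3.3 (TMM, robust quasi-likelihood test), in 1 model of the 12 LCM libraries and 1 of the 6 MII libraries. Genes past an adjusted p of 0.05 (Benjamini-Hochberg, over all genes) with a fold of 2 or more were called. Standard errors and 95% intervals come from the test statistic. All 10 members are named. Their log2 fold changes are given for the pooled culture, pooled stage and MII comparisons, and of the lists the genes called plus the 2 with the highest mean TPM of each. A fold against a group with all libraries at 0 uses a floor of 3 counts per library and is a lower limit. A group with 1 to 3 counts gives a ratio with its exact (Clopper-Pearson) counting interval. Floors and intervals cover counting error only, since no molecular identifiers were used. Gene coordinates are those of GENCODE release 21 for mouse (mm10).

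Alternatives were DESeq2 1.42.0, its size factors, scaling by library size alone, no and stricter filters, a replicate block, all 18 libraries in 1 model, limma 3.58.1 on log2 TPM with pseudocounts of 1 and 0.1, and leaving out each library. The scripts were tested on simulated data.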

Additional observations from a re-analysis of the deposited data

Results flagged for a closer look

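The culture values of *Gadd45a* ran in opposite directions at the 2 follicle stages. Every primordial *in vitro* library was below every *in vivo* library, by at least 34.9-fold between the group means, and every primary *in vitro* library was above every *in vivo* library, by at least 22.4-fold. The difference between the stages was not tested, because *Gadd45a* was chosen by its culture values. No other of the 10 genes had non-overlapping groups in opposite directions. The share of all genes whose groups did not overlap is not given here or above, so non-overlap only describes these genes. With 3 libraries a group, single outlying libraries were not tested.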

How the results depend on the processing

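The number of tested genes called stayed at 0 in all 8 comparisons under the alternatives run, except that DESeq2 with its defaults called 1, *Gadd45a*, in the stage effect *in vivo*. *Gadd45a* was chosen by culture differences in the same libraries, so that call is not an independent result. Deviations of same-numbered libraries from their group means correlated at -0.03 to 0.09. This cannot decide whether the replicate numbers pair libraries, since differently numbered libraries were not compared. The fit with a replicate block called 0 of these genes in each comparison, and it turned the log2 fold change of *Cdk4* to -0.22 for culture and 0.0155 for stage in LCM oocytes, of *Cdk6* to 1.18 for stage and 0.11 in MII oocytes, and of *Cdkn1a* to 0.32 in MII oocytes. limma on log2(TPM + 0.1) turned *Ccnd3* to 0.41 for culture and 0.0485 for stage, *Cdk4* to 1.98 for stage, and in MII oocytes *Cdk6* to 0.0390 and *Cdkn1a* to 0.19. limma on log2(TPM + 1) turned *Cdk4* to 1.47 for stage and *Cdkn1a* to 0.12 in MII oocytes, and 1 model of all 18 libraries turned *Cdkn1a* to 0.0170. Leaving out 1 library gave ranges that crossed 0: for culture in LCM oocytes -4.94 to 2.84 (*Ccnd1*), -4.32 to 5.10 (*Ccnd3*), -2.06 to 1.74 (*Cdk4*) and -2.25 to 2.78 (*Cdk6*); for stage -3.77 to 3.37 (*Ccnd1*), -6.69 to 2.72 (*Ccnd3*), -1.08 to 2.73 (*Cdk4*), -3.04 to 1.58 (*Cdk6*) and -1.68 to 0.0828 (*Rb1*); and in MII oocytes -0.54 to 0.42 (*Cdk6*), -0.0713 to 0.33 (*Rb1*) and -0.46 to 0.94 (*Cdkn1a*). The causes were not tested. Over all genes, edgeR called 5, 0, 0, 8, 0, 0, 16 and 60 genes and DESeq2 774, 227, 557, 532, 413, 625, 550 and 351, in the order primordial culture, primary culture, pooled culture, stage *in vivo*, stage *in vitro*, pooled stage, interaction and MII. TMM left the median log2 fold change of all genes at 0.44 for culture in primary oocytes and for stage *in vitro*, 0.15 for pooled culture, 0.34 for pooled stage and 0.91 for the interaction, against which fitted LCM values should be read. Fold limits and the *Gli3* alternatives were chosen after seeing the data.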
